A study of Homo sapiens with 9 samples.

Results

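Splicing removes introns from nascent transcripts. The spliceosome that does this is built from small nuclear ribonucleoproteins (snRNPs), each an RNA wrapped in a ring of Sm proteins with a few proteins of its own. SR proteins bind exons and recruit the spliceosome, and heterogeneous nuclear ribonucleoproteins (hnRNPs) coat the transcript and often repress exons. The relative amounts of these factors influence which exons a cell includes, and programs of alternative splicing differ between pluripotent stem cells and the cells derived from them.

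The genes described here are the splicing factors and hnRNP proteins whose array symbols begin with SRSF or SFRS, SF3A or SF3B, HNRNP or HNRP, PRPF, U2AF, or SNRP followed by a letter from A to G. They number 67 of the 11991 genes tested. By role they fall into 11 SR proteins, 26 hnRNP genes, 8 subunits of the SF3A and SF3B complexes, 3 U2AF subunits, 6 Sm core proteins, 4 proteins particular to the U1 or U2 snRNP, and 9 PRPF factors. A total of 103 named probes read them, and 26 of the genes had more than 1 probe. Where a gene had several probes, the probe that averaged highest in the deposited value table stands for it. The detection filter removed none of the 67. It could remove none, since every gene was drawn from the deposited value table, whose probes were detected on 4 or more arrays. Of the 67, 65 were detected on all 9 arrays. SRSF12 was detected on 7 arrays (1 of 3 in progenitors), and HNRNPA3P1 on 8 (2 of 3 in progenitors).

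Expression was measured on Illumina BeadChips in 3 groups of 3 arrays, all from the human embryonic stem cell line H9. The perivascular progenitor cells (progenitors) were the adherent cells obtained when embryoid bodies of day 6 were dissociated and plated on collagen in an endothelial growth medium, then passaged. Embryoid bodies were floating aggregates kept for 6 days with 40 nM BMP4, a growth factor that directs early mesoderm. The hESC were undifferentiated H9 cells on mouse feeder cells with 4 ng/ml bFGF. The labels do not say whether the 3 arrays of a group come from separate cultures, so p-values measure the spread between these arrays, which may be technical. Levels are normalized log2 intensities, given for arrays 1, 2 and 3 of a group in that order. They are compared between groups for 1 probe at a time, except in medians and sums over sets of genes. A change is a difference of group means on that log2 scale from limma's fit over all genes. "Rose" and "fell" mean an adjusted p under 0.05, and a change of at least 1 on the log2 scale is called 2-fold.

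The groups were checked against marker genes. In progenitors all 7 tested pluripotency markers fell relative to hESC. POU5F1 was not above background on any progenitor array and was at least 110.0-fold lower there than in hESC (adjusted p = 1.2e-10), and SOX2 was at least 48.8-fold lower (adjusted p = 7.51e-10). Levels of these markers were also summed on the intensity scale, where the brightest genes weigh most. The log2 of that sum was 10.32 to 10.41 in progenitors, 16.37 to 16.39 in embryoid bodies and 16.25 to 16.53 in hESC. Of 10 listed pericyte and mesenchymal markers, CSPG4, MCAM, NT5E and ENG were not tested. Among the other 6, PDGFRB (4.57), ACTA2 (3.78), COL1A1 (4.09) and COL3A1 (9.31) rose in progenitors relative to hESC. THY1 fell (-2.91) and TAGLN did not pass (0.39), all as log2 changes. The log2 of the summed intensity of these 6 was 16.22 to 16.80 in progenitors, 13.07 to 13.16 in embryoid bodies and 13.48 to 14.16 in hESC. In embryoid bodies relative to hESC, 1 of these 6 rose and 2 fell, and 1 of 2 tested endothelial markers (of 5 listed) fell. Both tested trophoblast and amnion markers, TFAP2A and GABRP, rose there by 2-fold or more, where 1.5% of all genes did. GATA3, CGA and KRT7, also on that list, were not tested. Probes detected per array numbered 17964 to 21172 of 47323. The array progenitor 2 had 657 and 600 genes at least 2-fold away from the other progenitor arrays, and hESC 3 had 445 and 426 away from the other hESC arrays; NANOG was not detected on hESC 3. No splicing gene was 2-fold apart between arrays of 1 group, but progenitor 2 held the lowest progenitor value for 48 of the 67. The counts over the 67 genes are given with and without these arrays, and class and list counts without them where stated. Without progenitor 2, 6 of the 7 pluripotency markers fell.

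In progenitors the splicing genes were mostly lower than in hESC. Of the 67 genes, 48 (71.6%) fell and 2 rose, where 37.5% of all genes tested fell and 30.9% rose. At 2-fold or more, 14 (20.9%) fell, close to the 19.1% of all genes, and 1 rose, against 14.7% of all genes. The median change was -0.63 over the 67 genes and -0.07 over all genes, and 60 of the 67 changes were below 0. The falls were thus frequent and mostly of less than 2-fold. Without progenitor 2, 50 genes fell and 9 of them reached 2-fold, SF3A3, SF3B4, SNRPA1, SRSF1 and U2AF1 dropping below that size. Without hESC 3, 47 fell and 12 of them by 2-fold. With near-identical arrays averaged (hESC 1 and 2, the 3 embryoid body arrays, progenitors 1 and 3), 32 fell, where 26.3% of all genes fell. In these bulk samples, fewer cells of a type and less RNA per cell cannot be told apart.

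**Figure D1:**
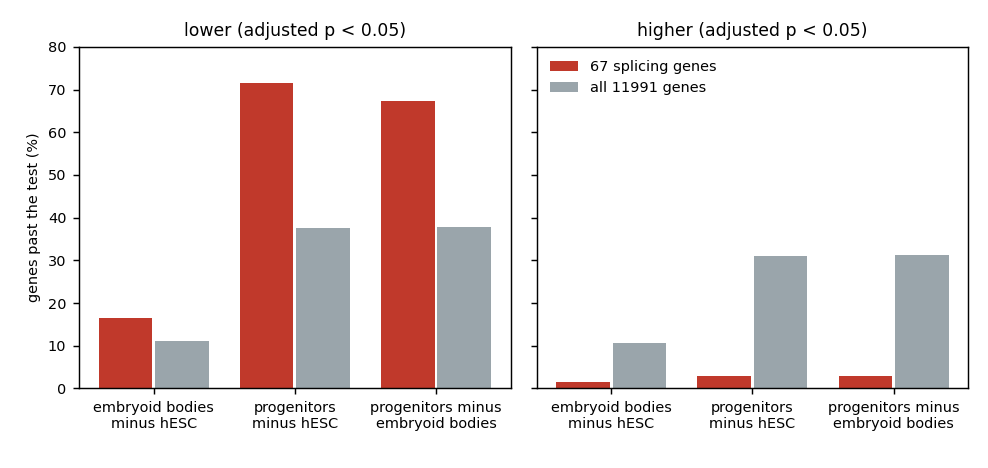
Percentage of the 67 splicing genes (red) and of all 11991 genes (grey) that were lower (left panel) or higher (right panel) at an adjusted p under 0.05, on the vertical axis, in 3 comparisons on the horizontal axis. Lower genes made up 71.6% of the splicing genes and 37.5% of all genes in progenitors minus hESC, and 16.4% and 11% in embryoid bodies minus hESC.

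On single arrays the same order was seen. The median log2 level over the 67 genes was 11.02, 10.85 and 11.02 on progenitor arrays 1 to 3, 11.39, 11.41 and 11.40 on the embryoid body arrays, and 11.48, 11.45 and 11.46 on the hESC arrays. The progenitor arrays lay below the other 6, and progenitor 2 was the lowest. Genes of cell division moved with this group. All 10 division markers fell in progenitors relative to hESC, each by at least 2-fold, also without progenitor 2 or hESC 3. The log2 of their summed intensity was 12.43 to 13.37 in progenitors, 14.91 to 14.94 in embryoid bodies and 14.88 to 14.94 in hESC. The lowest sum was that of progenitor 2, and MKI67, not above background on any progenitor array, was at least 2.24-fold lower than in hESC (adjusted p = 1.03e-05). The part of division in the changes of the splicing genes was not tested.

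**Figure D2:**
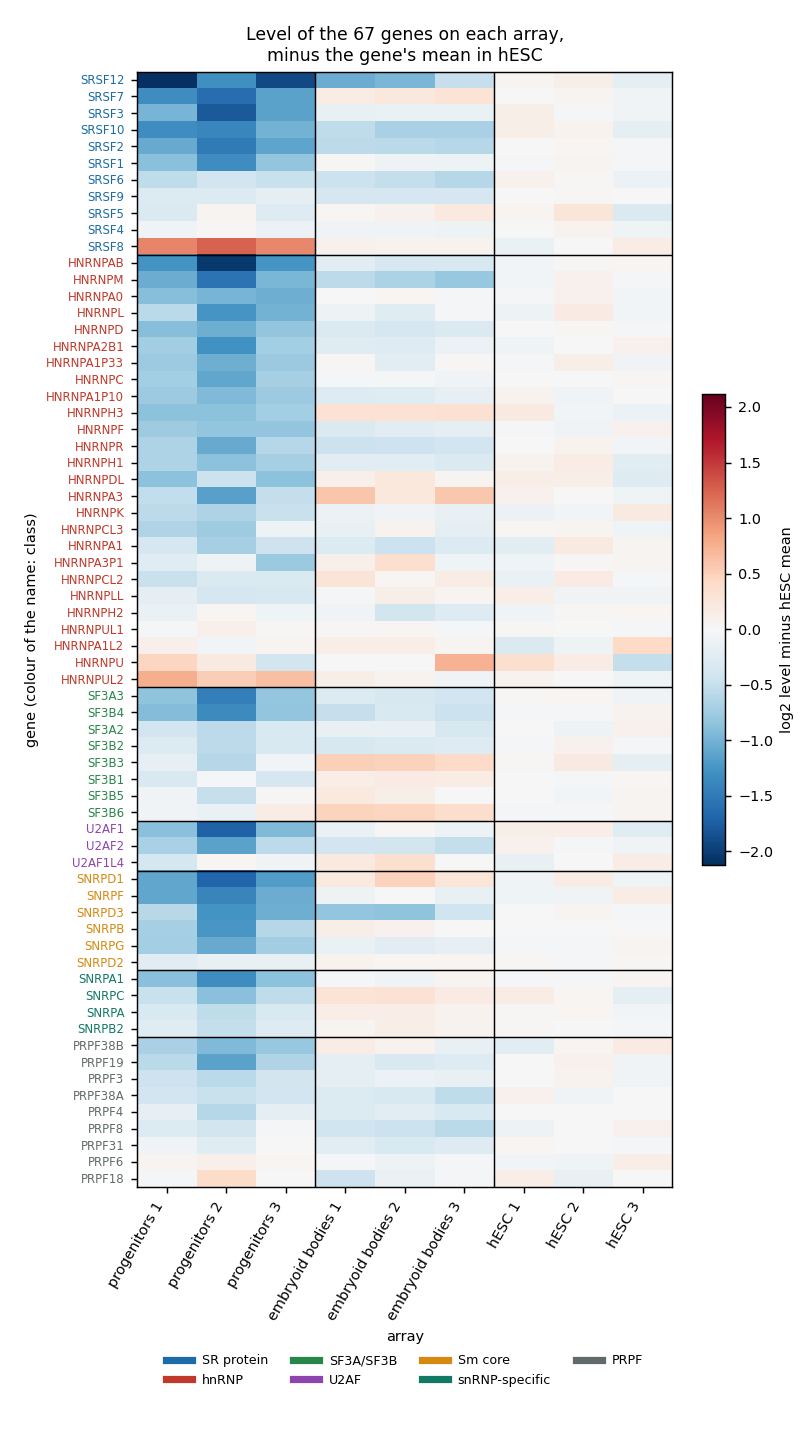
Level of each of the 67 genes (rows, grouped by class and ordered by their change) on each of the 9 arrays (columns), as the log2 level minus the gene's mean in hESC. Blue is lower and red higher than that mean; most rows are blue on the 3 progenitor arrays, and SRSF8 and HNRNPUL2 are red there.

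SR proteins had the lowest median change of the 7 classes, -1.01 in progenitors minus hESC. Of the 11, 8 (72.7%) fell, 6 of them by 2-fold or more, 1 rose and 2 did not pass. Of all genes 37.5% fell, 19.1% by 2-fold or more, and 30.9% rose. On the deposited values this ranking was not kept. The middle SR protein there was SRSF10 (-0.78), and the middle Sm core genes were SNRPB (-0.83) and SNRPG (-0.84). SRSF1, SRSF10 and SRSF12 fell by less than 2-fold there. SRSF7, an SR protein with a zinc knuckle beside its RNA recognition motif, was at 9.95, 9.66 and 10.15 in progenitors, 11.43, 11.50 and 11.56 in embryoid bodies and 11.28, 11.33 and 11.20 in hESC. Its progenitor values lay below all others, without overlap, and it fell 2.56-fold relative to hESC, a change of -1.35 ± 0.13 (SE, adjusted p = 1.3e-05). SRSF3, the smallest SR protein, which also acts in the export of mRNA, was at 10.50, 9.70 and 10.35 in progenitors, 11.32, 11.35 and 11.34 in embryoid bodies and 11.61, 11.45 and 11.41 in hESC, and changed by -1.30 ± 0.18 (SE, adjusted p = 0.000202). Progenitor 2 was the lowest for both, and SRSF3 changed by -1.06 without it.

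SRSF2, a component of the nuclear speckles in which splicing factors are stored, stood at 12.92, 12.49 and 12.86 in progenitors, 13.44, 13.42 and 13.38 in embryoid bodies and 13.98, 14.02 and 13.96 in hESC. The 3 groups did not overlap, and its change between progenitors and hESC was -1.23 ± 0.12 (SE, adjusted p = 1.53e-05). SRSF10, which represses splicing when it is dephosphorylated in mitosis and heat shock, was at 7.27, 7.20 and 7.59 in progenitors, 8.04, 7.90 and 7.90 in embryoid bodies and 8.71, 8.66 and 8.38 in hESC; its groups did not overlap either, and it changed by -1.23 ± 0.13 (SE, adjusted p = 3.49e-05). Its other probe gave -0.51 ± 0.17 (SE), and the deposited values gave -0.78 for the first. SRSF1, a general splicing factor that also acts as an oncoprotein, changed by -1.01 ± 0.13 (SE, adjusted p = 0.000102) relative to hESC.

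SRSF12, which was found to counteract other SR proteins in vitro, had the largest fitted fall among the 67 genes, -1.78 ± 0.23 (SE, adjusted p = 0.0001), close to background. It was at 5.74, 6.56 and 5.95 in progenitors, 6.81, 6.90 and 7.38 in embryoid bodies and 7.93, 7.99 and 7.67 in hESC, and only progenitor 2 was called detected in progenitors. On the deposited log2 values its change was -0.85, and the largest fall there was that of HNRNPAB (-1.50).

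SRSF6 and SRSF9 fell by less. SRSF9, whose probe had the highest mean of the class, was at 13.41, 13.41 and 13.50 in progenitors, 13.36, 13.35 and 13.35 in embryoid bodies and 13.70, 13.73 and 13.70 in hESC, with progenitors and embryoid bodies at nearly 1 level below hESC. Its change was -0.27 ± 0.08 (SE, adjusted p = 0.0115) in progenitors and -0.36 ± 0.08 (SE, adjusted p = 0.0124) in embryoid bodies, both relative to hESC. SRSF6 changed by -0.46 ± 0.09 (SE, adjusted p = 0.002) in progenitors and -0.52 ± 0.09 (SE, adjusted p = 0.00664) in embryoid bodies. Between progenitors and embryoid bodies neither passed, at 0.06 ± 0.09 for SRSF6 and 0.09 ± 0.08 for SRSF9 (SE). SRSF4 (-0.06 ± 0.09) and SRSF5 (-0.18 ± 0.16) did not pass in progenitors relative to hESC.

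SRSF8 was the SR protein that rose. It is encoded by an expressed retrocopy of SRSF2, and it stood at 10.35, 10.56 and 10.33 in progenitors, 9.40, 9.38 and 9.38 in embryoid bodies and 9.17, 9.30 and 9.46 in hESC. All progenitor values were above all others, and embryoid bodies lay within the range of hESC. It rose 2.15-fold relative to hESC (1.11 ± 0.11, SE, adjusted p = 1.53e-05) and 2.04-fold relative to embryoid bodies (1.03 ± 0.11, SE, adjusted p = 2.39e-05). The change relative to hESC was 0.99 on the deposited values, just under 2-fold, and that relative to embryoid bodies was 0.95 without progenitor 2. SRSF2 and its retrocopy thus differed in sign, each read by 1 probe. Whether either probe also binds the other transcript was not tested.

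**Figure D3:**
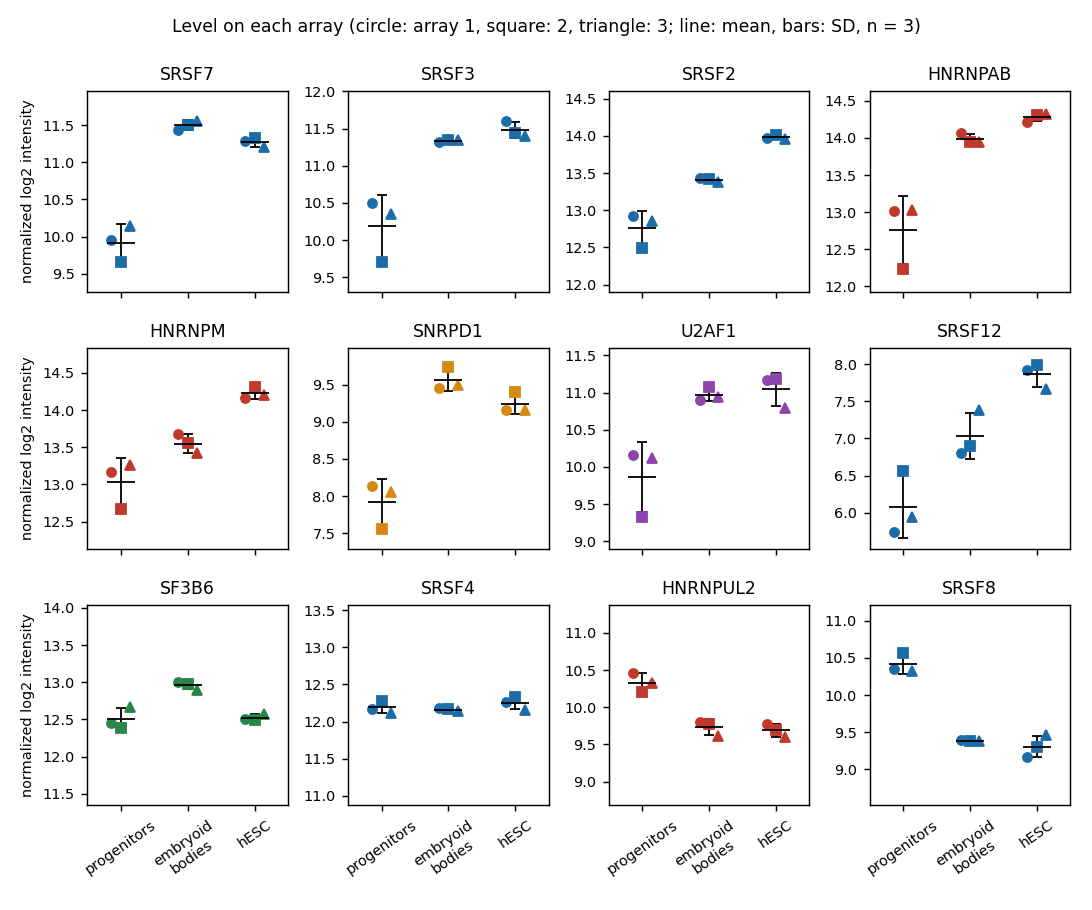
Normalized log2 intensity (vertical axis, the same span in each panel) of 12 genes on each array of progenitors, embryoid bodies and hESC (horizontal axis); points are arrays, horizontal lines group means, bars the SD of 3 arrays, and colours classes. SRSF7, SRSF3, SRSF2, HNRNPAB, HNRNPM, SNRPD1 and U2AF1 are lowest in progenitors, SRSF8 and HNRNPUL2 highest there, and SRSF4 lies near 1 level in all groups.

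Of the 26 hnRNP genes, 20 fell in progenitors relative to hESC (76.9%, against 37.5% of all genes). A further 5 did not pass and 1 rose (against 30.9% of all genes), with a median of -0.73 over the 26. HNRNPAB, a member of the A/B family that binds single-stranded nucleic acid, led them at 13.02, 12.24 and 13.03 in progenitors, 14.07, 13.95 and 13.94 in embryoid bodies and 14.22, 14.31 and 14.32 in hESC. Progenitors lay below both other groups, progenitor 2 lowest, and HNRNPAB fell 2.87-fold relative to hESC (-1.52 ± 0.19, SE, adjusted p = 0.000102). Its 3 probes gave -1.52 ± 0.19, -1.67 ± 0.20 and -1.72 ± 0.20 (SE). HNRNPM, known in breast cancer cells for promoting mesenchymal splicing of CD44, was at 13.17, 12.66 and 13.26 in progenitors, 13.67, 13.55 and 13.42 in embryoid bodies and 14.17, 14.31 and 14.20 in hESC. The groups did not overlap, and its change was -1.19 ± 0.16 (SE, adjusted p = 0.000116) relative to hESC, with falls on all 4 of its probes.

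Falls of somewhat under 2-fold ran through most of the family. HNRNPA0, which binds AU-rich elements, was at 11.47, 11.38 and 11.34 in progenitors, 12.36, 12.42 and 12.33 in embryoid bodies and 12.33, 12.46 and 12.32 in hESC, with embryoid bodies within the range of hESC. It fell 1.96-fold relative to hESC, a change of -0.97 ± 0.08 (SE, adjusted p = 8.51e-06). HNRNPD, also called AUF1 and known for promoting decay of mRNAs with AU-rich elements, was at 13.64, 13.51 and 13.70 in progenitors, 14.22, 14.18 and 14.23 in embryoid bodies and 14.54, 14.56 and 14.51 in hESC and changed by -0.92 ± 0.08 (SE, adjusted p = 1.16e-05). HNRNPL, which binds CA repeats, changed by -0.94 ± 0.17 (SE, adjusted p = 0.00089), HNRNPC, which binds uridine tracts and keeps Alu elements from being spliced in as exons, by -0.84 ± 0.11, and HNRNPF, which binds runs of G, by -0.81 ± 0.08 (SE). HNRNPA2B1, a repressor of many exons, changed by -0.92 ± 0.15 (SE, adjusted p = 0.000558) on its brightest probe, and 2 of its 3 other probes did not pass. Also lower were HNRNPLL (-0.30 ± 0.10), known for CD45 splicing in T cells, HNRNPR (-0.78 ± 0.13), HNRNPH1 (-0.74 ± 0.12), HNRNPDL (-0.73 ± 0.15), HNRNPCL2 (-0.36 ± 0.11) and HNRNPCL3 (-0.50 ± 0.16; SE). The calls of HNRNPLL, HNRNPCL2 and HNRNPCL3 were each lost when certain single arrays were left out. HNRNPA3 (-0.73 ± 0.18) and HNRNPH3 (-0.82 ± 0.10; SE) fell as well.

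HNRNPA1, the family's best-known exon repressor, depended on the probe. The chosen probe changed by -0.50 ± 0.14 (SE, adjusted p = 0.0101) in progenitors relative to hESC and the other by -2.64 ± 0.40 (SE, adjusted p = 0.0003). That other probe was close to background in progenitors, at 6.67, 5.24 and 6.996, and was detected on 2 of the 3 arrays there. HNRNPK, a binder of C-rich sequence, had a chosen probe at -0.56 ± 0.10, another probe, designed on a different transcript record, at 0.47 ± 0.13 (SE, adjusted p = 0.00892), and so opposed calls within 1 gene. HNRNPUL1, related to the matrix-attachment protein HNRNPU, likewise had a probe that fell (-0.37 ± 0.12) and a probe that rose (0.35 ± 0.11), while the chosen one did not pass (0.03 ± 0.08, SE). The rising probes of both genes were dim, with progenitor means of 7.46 (HNRNPK) and 7.355 (HNRNPUL1), against 12.71 and 12.08 for the chosen ones. Over all 103 probes, 72 fell and 4 rose (74 and 4 without progenitor 2), against 36.5% and 30.7% of all 15592 named probes, and these were the 2 genes with opposed calls.

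HNRNPUL2, another relative of HNRNPU, was the hnRNP gene that rose. It was at 10.46, 10.21 and 10.33 in progenitors, 9.81, 9.77 and 9.61 in embryoid bodies and 9.77, 9.70 and 9.60 in hESC, with progenitors above all other arrays. Its change was 0.64 ± 0.10 (SE, adjusted p = 0.000435) relative to hESC and 0.60 ± 0.10 (SE, adjusted p = 0.000626) relative to embryoid bodies. HNRNPU itself (0.09 ± 0.30), HNRNPH2 (-0.07 ± 0.10) and HNRNPA1L2 (0.04 ± 0.17) did not pass relative to hESC on their chosen probes. The other probe of HNRNPA1L2 fell (-0.67 ± 0.22, SE, adjusted p = 0.0219). HNRNPU spread over more than 1 log2 unit between arrays, from 8.35 on hESC 3 to 9.59 on embryoid bodies 3. The annotated pseudogenes HNRNPA1P10 (-0.82 ± 0.09) and HNRNPA1P33 (-0.86 ± 0.12) fell as well, and HNRNPA3P1 did not pass (-0.39 ± 0.18). Their probes, and those of HNRNPA1L2, HNRNPCL2 and HNRNPCL3, may bind transcripts of near-identical copies, so these values are uncertain. Without the 3 pseudogenes, 46 of 64 genes fell and 2 rose.

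Promoters are shown for a strongly falling and a rising gene of each of these classes, to set the sequences beside the opposed directions. They run 5′ to 3′ on the gene's strand, from 250 bases before to 50 bases after the RefSeq start, in GRCh38.p14. Capitals mark the matches of the motifs listed in the next paragraph, on either strand. Windows were found for 58 of the 67 genes.
SRSF7 (fell, chr2:38751445-38751744, minus strand): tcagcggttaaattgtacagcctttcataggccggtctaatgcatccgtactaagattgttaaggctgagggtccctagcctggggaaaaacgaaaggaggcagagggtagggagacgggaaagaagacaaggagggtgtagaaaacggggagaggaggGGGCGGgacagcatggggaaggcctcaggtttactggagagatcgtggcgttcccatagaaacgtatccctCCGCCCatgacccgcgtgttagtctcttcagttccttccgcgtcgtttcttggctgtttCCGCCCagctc
SRSF8 (rose, chr11:95066627-95066926, plus strand): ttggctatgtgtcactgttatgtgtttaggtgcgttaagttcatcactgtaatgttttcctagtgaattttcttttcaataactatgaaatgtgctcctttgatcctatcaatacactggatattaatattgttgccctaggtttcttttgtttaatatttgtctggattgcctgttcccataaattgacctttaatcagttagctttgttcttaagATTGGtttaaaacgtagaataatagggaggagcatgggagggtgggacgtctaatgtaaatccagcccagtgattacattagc
HNRNPAB (fell, chr5:178204283-178204582, plus strand): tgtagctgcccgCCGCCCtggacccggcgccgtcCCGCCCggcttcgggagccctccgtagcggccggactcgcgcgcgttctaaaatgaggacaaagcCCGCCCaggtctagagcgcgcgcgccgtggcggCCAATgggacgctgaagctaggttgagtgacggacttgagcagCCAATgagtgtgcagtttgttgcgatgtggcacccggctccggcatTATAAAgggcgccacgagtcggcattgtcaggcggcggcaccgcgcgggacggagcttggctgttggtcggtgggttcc
HNRNPUL2 (rose, chr11:62727408-62727707, minus strand): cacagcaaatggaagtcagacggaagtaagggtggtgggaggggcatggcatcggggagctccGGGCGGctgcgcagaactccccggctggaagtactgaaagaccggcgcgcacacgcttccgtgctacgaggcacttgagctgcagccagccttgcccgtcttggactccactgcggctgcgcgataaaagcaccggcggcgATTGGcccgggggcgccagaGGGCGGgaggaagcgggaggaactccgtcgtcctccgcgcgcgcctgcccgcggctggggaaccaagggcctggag

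Each motif was searched as exact letters on both strands, and none of the 7 motifs contains another. The window of SRSF7 held the GC box GGGCGG 3 times. That of HNRNPAB held it 3 times, with CCAAT 2 times and TATAAA 1 time. HNRNPUL2 had 2 GC boxes and 1 CCAAT. The window of SRSF8, a retrocopy, had no GC box and 1 CCAAT. Of the 58 windows, 60.3% held GGGCGG, against 44.6% of all 27305 promoters of the same length, and 32.8% held the ETS motif CCGGAAG, against 10.7%. The others were ATGGCGG of YY1 (13.8% and 5.72%), GCGCATGC of NRF1 (6.9% and 3.27%), CACGTG of MYC (13.8% and 7.43%), CCAAT of NFY (44.8% and 35.7%) and TATAAA (8.62% and 12.0%). Among the 41 windows of genes that fell in progenitors relative to hESC, 61.0% held GGGCGG and 31.7% CCGGAAG, near the shares of all 58. The 27305 promoters include those of genes not tested here, a broader set than the 11991 tested genes. A match describes these letters and is not a binding site shown here.

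The U2 snRNP and its loading factors were divided. SF3A and SF3B are protein complexes of the U2 snRNP that grip the intron's branch point. Of their 8 tested genes 4 fell (50%, against 37.5% of all genes), 2 of them by 2-fold (against 19.1% of all genes). Without progenitor 2, 5 fell and 0 reached 2-fold, and without hESC 3 only SF3A3 did. SF3A3 was at 11.54, 10.94 and 11.58 in progenitors, 12.10, 12.05 and 11.99 in embryoid bodies and 12.42, 12.43 and 12.32 in hESC, and SF3B4 at 11.60, 11.18 and 11.68 in progenitors, 12.04, 12.20 and 12.06 in embryoid bodies and 12.50, 12.48 and 12.59 in hESC; neither overlapped between progenitors and the other groups, and both were lowest on progenitor 2. Their changes relative to hESC were -1.04 ± 0.16 (SE, adjusted p = 0.000343) for SF3A3 and -1.03 ± 0.13 (SE, adjusted p = 0.000115) for SF3B4. SF3B1, the large subunit that holds the branch helix, was at -0.24 ± 0.10 (SE, adjusted p = 0.0589) and SF3B3 at -0.28 ± 0.15, both short of the threshold, as was SF3B5 (-0.18 ± 0.14). SF3A2 (-0.43 ± 0.10) and SF3B2 (-0.38 ± 0.10; SE) fell by less than SF3A3. SF3B6, which contacts the branch adenosine, had the highest mean of the class, and was at 12.45, 12.39 and 12.67 in progenitors, 12.999, 12.97 and 12.90 in embryoid bodies and 12.50, 12.49 and 12.57 in hESC; progenitors and hESC overlapped (-0.02 ± 0.10, SE).

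U2AF1, which reads the AG at the end of the intron, was at 10.17, 9.32 and 10.12 in progenitors, 10.90, 11.07 and 10.94 in embryoid bodies and 11.16, 11.18 and 10.79 in hESC. It fell 2.26-fold relative to hESC (-1.18 ± 0.22, SE, adjusted p = 0.00108), and by less without progenitor 2 (-0.90). U2AF2, its partner on the polypyrimidine tract, was at 11.35, 10.91 and 11.48 in progenitors, 11.63, 11.65 and 11.53 in embryoid bodies and 12.14, 12.02 and 11.96 in hESC. Its progenitor and hESC values did not overlap (-0.79 ± 0.14, SE, adjusted p = 0.000902). U2AF1L4, a related small subunit, did not pass on its chosen probe (-0.13 ± 0.14). Its other probe, detected on 1 of 3 progenitor arrays, fell (-0.42 ± 0.16, SE, adjusted p = 0.0423).

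The Sm ring is loaded on the spliceosomal RNAs in the cytoplasm. It was lower in 5 of 6 tested genes (83.3%, against 37.5% of all genes), with a median of -0.90. SNRPE, which also belongs to the ring, was not among the genes tested. SNRPD1 was at 8.13, 7.56 and 8.06 in progenitors, 9.45, 9.73 and 9.50 in embryoid bodies and 9.16, 9.41 and 9.16 in hESC; progenitors were the lowest and embryoid bodies the highest, and it fell 2.51-fold relative to hESC (-1.33 ± 0.16, SE, adjusted p = 8.13e-05). SNRPF was at 12.96, 12.66 and 13.01 in progenitors, 13.95, 14.07 and 13.90 in embryoid bodies and 13.96, 13.99 and 14.22 in hESC and changed by -1.18 ± 0.12 (SE, adjusted p = 2.52e-05), and its other probe by -1.31 ± 0.13 (SE). SNRPD3 (-0.96 ± 0.18), SNRPB (-0.84 ± 0.15) and SNRPG (-0.84 ± 0.11) fell by under 2-fold. SNRPD2, the subunit beside SNRPD1 in the ring, was at 14.73, 14.79 and 14.79 in progenitors, 15.03, 14.99 and 14.98 in embryoid bodies and 14.97, 14.91 and 14.97 in hESC and did not pass relative to hESC (-0.18 ± 0.08, adjusted p = 0.0604). The fitted changes of the subunits were thus unequal, each read by its own probe. The SNRPD2 probe lay at percentile 99.6 of mean level among all genes. Whether its change was compressed at the top of the scale was not tested.

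All 4 proteins of individual snRNPs fell in progenitors relative to hESC, against 37.5% of all genes. SNRPA1, of the U2 snRNP, was at 11.98, 11.55 and 11.99 in progenitors, 12.82, 12.78 and 12.92 in embryoid bodies and 12.85, 12.82 and 12.93 in hESC, with embryoid bodies and hESC overlapping and progenitors below (-1.02 ± 0.13, SE, adjusted p = 8.86e-05). Its U2 partner SNRPB2, with the highest mean of the class, was at 12.43, 12.17 and 12.40 in progenitors, against 12.70, 12.67 and 12.65 in hESC (-0.34 ± 0.09, SE, adjusted p = 0.00905). The U1 proteins SNRPA and SNRPC changed by -0.40 ± 0.09 and -0.63 ± 0.14 (SE).

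PRPF factors serve the tri-snRNP and the catalytic steps. Of the 9, 5 fell (55.6%, against 37.5% of all genes), none by 2-fold (against 19.1%), with a median of -0.33. PRPF38B, a factor related to the activation protein PRPF38A, was at 7.82, 7.57 and 7.70 in progenitors, 8.66, 8.57 and 8.35 in embryoid bodies and 8.27, 8.55 and 8.67 in hESC, with progenitors below the other groups (-0.80 ± 0.13, SE, adjusted p = 0.000568). PRPF19, the ubiquitin ligase of the Prp19 complex, changed by -0.78 ± 0.14 (SE, adjusted p = 0.00106) and PRPF3, of the U4/U6 snRNP, by -0.46 ± 0.09 (SE, adjusted p = 0.00122). PRPF4, its U4/U6 partner, changed by -0.33 ± 0.12 (SE, adjusted p = 0.036), a call that was lost without any 1 of the hESC or embryoid body arrays, with the array number as a block and with near-identical arrays averaged. PRPF8, the large protein at the catalytic centre, was at 11.92, 11.82 and 12.16 in progenitors, 11.78, 11.75 and 11.64 in embryoid bodies and 12.10, 12.22 and 12.31 in hESC and did not pass in progenitors relative to hESC (-0.24 ± 0.11). PRPF6 (0.08 ± 0.09), PRPF18 (0.12 ± 0.15) and PRPF31 (-0.11 ± 0.09) did not pass either. PRPF38A changed by -0.42 ± 0.10 on its chosen probe and -1.16 ± 0.15 on its other.

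**Figure D4:**
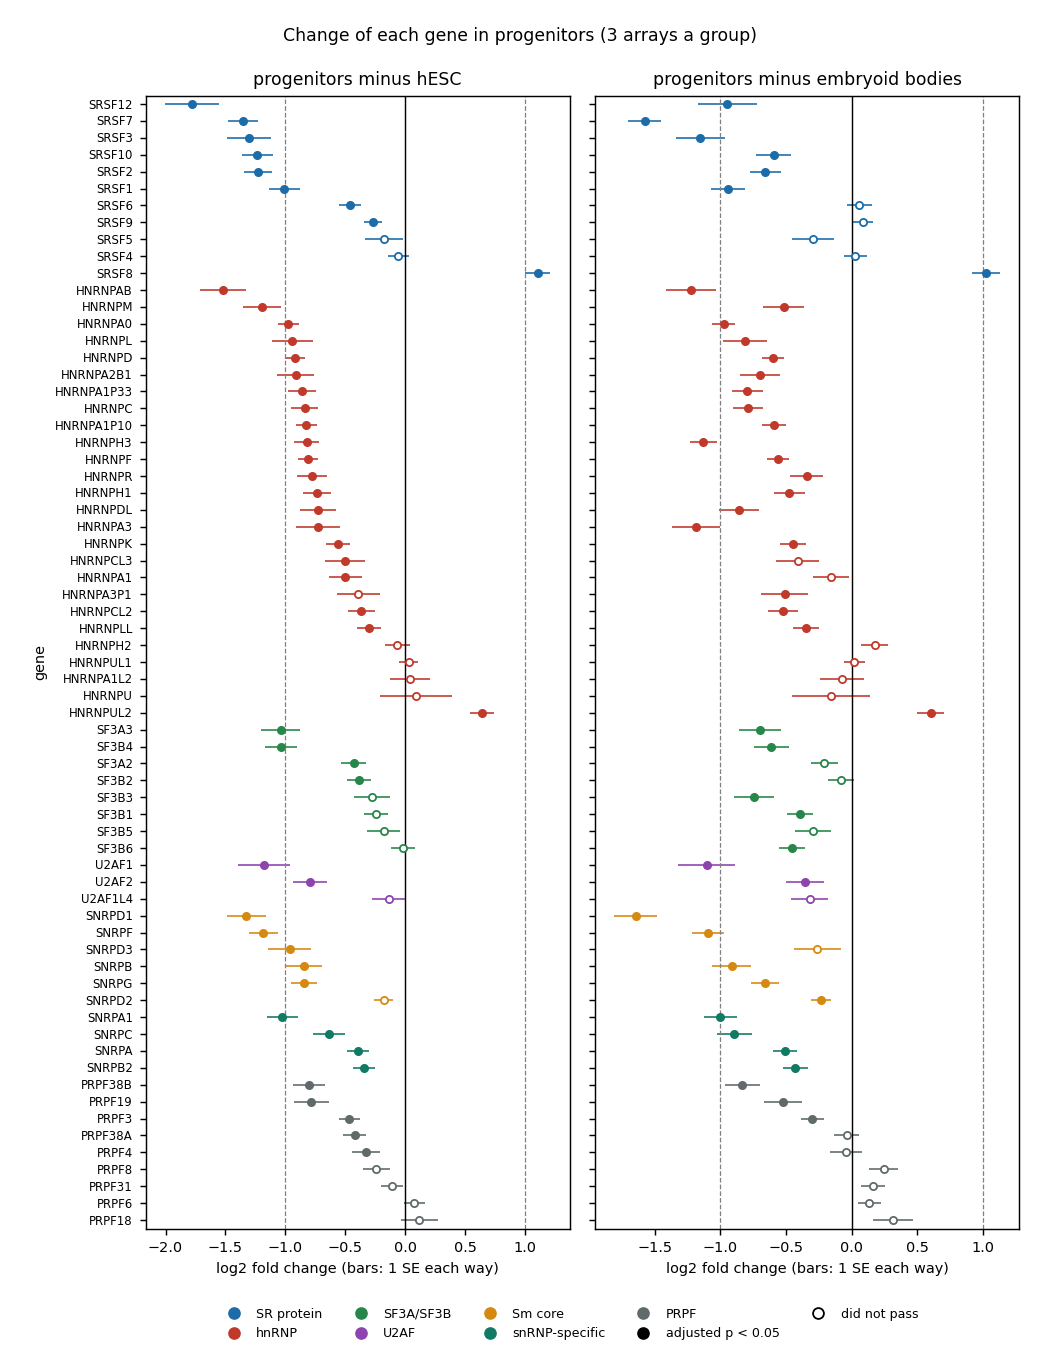
Log2 change (horizontal axis, bars 1 SE each way) of each of the 67 genes (vertical axis, coloured by class) in progenitors minus hESC (left) and progenitors minus embryoid bodies (right), 3 arrays a group; filled points passed an adjusted p of 0.05 and dashed lines mark 2-fold. On the left 48 points fell and 2 rose, and on the right 45 fell and 2 rose.

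Relative to embryoid bodies, progenitors showed a similar count. Of the 67 genes, 45 (67.2%) fell and 2 rose, where 37.8% of all genes fell and 31.2% rose. At 2-fold, 9 fell (13.4%, against 18.9% of all genes) and 1 rose (against 15.3%). The median was -0.51, and -0.08 over all genes. This comparison shares its progenitor arrays with the previous one, so the 2 are not independent. Without progenitor 2, 45 genes fell, 4 of them by 2-fold. With arrays scaled by their medians, 33 fell and 8 rose, where 33.1% of all genes fell and 34% rose. With near-identical arrays averaged, 13 fell, where 20.1% of all genes fell. All 10 division markers fell relative to embryoid bodies too, 9 of them by 2-fold. By class, 6 of 11 SR proteins, 20 of 26 hnRNP genes, 5 of 8 SF3A and SF3B subunits, 2 of 3 U2AF subunits, 5 of 6 Sm proteins, 4 of 4 snRNP-specific proteins and 3 of 9 PRPF factors fell. Among these calls, those of U2AF2, HNRNPCL3, HNRNPR and SNRPD2 were each lost without several single arrays and with the array number as a block.

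Several changes were numerically larger relative to embryoid bodies than relative to hESC. SNRPD1 fell 3.13-fold relative to embryoid bodies (-1.64 ± 0.16, SE, adjusted p = 1.92e-05), and SRSF7 2.98-fold (-1.58 ± 0.13, SE, adjusted p = 4.6e-06). HNRNPA3, which binds RNA much as HNRNPA1 does, was at 9.91, 9.28 and 9.92 in progenitors, 11.02, 10.65 and 11.001 in embryoid bodies and 10.52, 10.43 and 10.35 in hESC, and changed by -1.18 ± 0.18 (SE, adjusted p = 0.000328), against -0.73 ± 0.18 relative to hESC. HNRNPH3, a small relative of the G-run binders, was at 9.54, 9.53 and 9.68 in progenitors, 10.71, 10.71 and 10.73 in embryoid bodies and 10.60, 10.34 and 10.28 in hESC; it changed by -1.13 ± 0.10 (SE, adjusted p = 1.22e-05), and by -0.82 ± 0.10 relative to hESC. For both genes embryoid bodies were the highest group and progenitors the lowest, without overlap between them. Embryoid bodies minus hESC did not pass for any of these 4 genes. The rest of the 8 largest falls were HNRNPAB (-1.22 ± 0.19, SE, adjusted p = 0.000397), SRSF3 (-1.15 ± 0.18, SE, adjusted p = 0.000423), U2AF1 (-1.10 ± 0.22, SE, adjusted p = 0.00155) and SNRPF (-1.09 ± 0.12, SE, adjusted p = 4.04e-05). SF3B3 fell too (-0.74 ± 0.15, SE, adjusted p = 0.00201), as did SF3B1 (-0.39 ± 0.10) and SF3B6 (-0.46 ± 0.10), whose chosen probes had not passed relative to hESC.

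Between embryoid bodies and hESC fewer genes passed the test. Of the 67 genes 11 (16.4%) fell, against 11% of all genes, and 1 rose, against 10.7%. None changed by 2-fold in either direction, where 1.59% of all genes fell and 1.5% rose by that much. At an unadjusted p under 0.05, 24 of the 67 (35.8%) differed in either direction, against 35.7% of all genes, and the median was -0.09, against -0.01 over all genes. The count of falls turned on single arrays: it was 3 without embryoid bodies 2, 5 without hESC 2, 6 without embryoid bodies 1, embryoid bodies 3 or hESC 1, and 21 without progenitor 2, which enters through the shared estimate of the spread (18.1% of all genes fell then). With hESC 3 and progenitor 2 both left out, 23 fell and 5 rose, where 23.6% of all genes fell and 21.3% rose. With near-identical arrays averaged, 0 of the 67 and 0 of all genes passed in limma's test, and 1 of the 67 was at an unadjusted p under 0.05 (1.49%, against 8.14% of all genes). With arrays scaled by their medians, 32 fell and 0 rose, where 34.9% of all genes fell and 3.72% rose.

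The genes that fell at this step came from several classes. SRSF2 changed by -0.57 ± 0.12 (SE, adjusted p = 0.0105), SRSF10 by -0.64 ± 0.13 (SE, adjusted p = 0.0114), and HNRNPM by -0.68 ± 0.16 (SE, adjusted p = 0.0166), each with embryoid bodies between progenitors and hESC on every array. Relative to embryoid bodies the same 3 genes changed further in progenitors, by -0.66 ± 0.12, -0.59 ± 0.13 and -0.52 ± 0.16 (SE). SNRPD3 was at 8.07, 8.06 and 8.48 in embryoid bodies, against 8.90, 8.97 and 8.86 in hESC (-0.70 ± 0.18, SE, adjusted p = 0.0244), and SRSF12 changed by -0.83 ± 0.23 (SE, adjusted p = 0.0313). PRPF8 was lowest in embryoid bodies (-0.48 ± 0.11, SE, adjusted p = 0.0167) and did not pass in progenitors relative to embryoid bodies (0.24 ± 0.11). HNRNPR (-0.43 ± 0.13), PRPF38A (-0.39 ± 0.10) and HNRNPD (-0.32 ± 0.08; SE) completed the list with SRSF6 and SRSF9. The calls of HNRNPD, HNRNPR, SNRPD3 and SRSF12 were each lost without hESC 1, hESC 2, embryoid bodies 1 or embryoid bodies 2, and those of HNRNPD and HNRNPR also without embryoid bodies 3 and with the array number as a block. HNRNPM and PRPF8 were lost without hESC 2, embryoid bodies 2 or embryoid bodies 3, PRPF38A without hESC 1, embryoid bodies 2 or embryoid bodies 3, and SRSF9 without embryoid bodies 1 or embryoid bodies 2. SRSF10 and HNRNPR were lost with the mean of all probes. SRSF2 and SRSF6 lost theirs only with near-identical arrays averaged, among the alternatives run. The second probe of SRSF10 did not pass (0.12 ± 0.17).

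SF3B6 was the gene that rose in embryoid bodies relative to hESC. It was at 12.999, 12.97 and 12.90 in embryoid bodies, against 12.50, 12.49 and 12.57 in hESC, with no overlap and a change of 0.44 ± 0.10 (SE, adjusted p = 0.0146); its other probe gave 0.32 ± 0.11 (SE, adjusted p = 0.0711). The call was lost without hESC 2, embryoid bodies 1 or embryoid bodies 2, with arrays scaled by their medians and with near-identical arrays averaged. SF3B3 (0.46 ± 0.15) and HNRNPA3 (0.46 ± 0.18) had changes of like size that did not pass. Other probes of HNRNPC (0.49 ± 0.10, SE, adjusted p = 0.0123) and HNRNPUL1 (0.74 ± 0.11, SE, adjusted p = 0.00313) rose where the chosen ones did not pass.

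Other genes of the splicing machinery were taken from 8 lists, of which 112 of 132 genes could be tested. In progenitors relative to hESC, 66 (58.9%) fell, 14 (12.5%) rose and 32 did not pass, with a median of -0.46, where 37.5% of all genes fell and 30.9% rose. Relative to embryoid bodies, 64 of them fell and 15 rose in progenitors, and 13 fell and 13 rose in embryoid bodies relative to hESC (11.6% each), near the 11% and 10.7% of all genes. All 7 tested exon junction complex genes fell, led by MAGOHB (-1.59 ± 0.14, SE, adjusted p = 8.69e-06) and MAGOH (-1.23 ± 0.13, SE, adjusted p = 3.89e-05), the paired core subunits that mark spliced junctions. MAGOHB was detected on 1 of 3 progenitor arrays. In the LSM ring, 7 of 8 fell, 5 by 2-fold and 0 by 2-fold without progenitor 2, with LSM4 at -1.19 ± 0.17 (SE, adjusted p = 0.000238) and LSM8, which places the ring on U6 RNA in the nucleus, at -1.04 ± 0.13 (SE, adjusted p = 0.000115). LSM1, which takes the place of LSM8 in the cytoplasmic decay ring, did not pass (0.12 ± 0.08).

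Assembly factors of the snRNPs fell in 7 of 10 cases (70%, against 37.5% of all genes), and 1 rose (against 30.9% of all genes). GEMIN5, which recognizes snRNAs for the SMN complex, was at 7.69, 6.94 and 7.56 in progenitors, against 9.12, 9.24 and 9.26 in hESC (-1.81 ± 0.18, SE, adjusted p = 1.94e-05). GEMIN4 changed by -1.51 ± 0.17 (SE, adjusted p = 5.39e-05). GEMIN2, which holds the Sm proteins before they are loaded, changed by -1.44 ± 0.15 (SE, adjusted p = 3.31e-05) and was higher in embryoid bodies than in hESC (0.76 ± 0.15). PRMT5 (-1.02 ± 0.15) and its cofactor WDR77 (-1.09 ± 0.12), which methylate Sm proteins, fell, while SMN1 (0.15 ± 0.13) did not pass. Helicases and other snRNP proteins fell in 17 of 22 cases (77.3%, against 37.5% of all genes). They were led by SNRPN (-1.73 ± 0.12, SE, adjusted p = 2.22e-06), an imprinted relative of SNRPB, and DDX39A (-1.49 ± 0.15, SE, adjusted p = 1.95e-05), an RNA helicase of mRNA export.

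Other lists were mixed. Of 12 Prp19 complex genes, 3 fell (25%, against 37.5% of all genes) and ISY1 rose (0.79 ± 0.17, SE, adjusted p = 0.00268). Of all genes 30.9% rose. Of 8 minor spliceosome genes, which remove a rare class of introns, SNRNP25 fell (-0.57 ± 0.12) and 3 rose, ZMAT5 (0.69 ± 0.09), ZCRB1 (0.51 ± 0.14) and RNPC3 (0.33 ± 0.12), a share of 37.5%, near that of all genes. Without progenitor 2, 2 of them rose, and without hESC 3, 3 of the 8 fell. Among 7 kinases and importers of SR proteins, SRPK1 (-0.72 ± 0.15) and the importer TNPO3 (-0.96 ± 0.15) fell. The kinase CLK1 rose. It was at 10.95, 11.10 and 11.03 in progenitors, 10.96, 10.93 and 10.83 in embryoid bodies and 9.73, 9.93 and 9.98 in hESC, and was higher than in hESC both in embryoid bodies (1.03 ± 0.10, SE, adjusted p = 0.00045) and in progenitors (1.15 ± 0.10, SE, adjusted p = 7.53e-06). CLK3 (0.78 ± 0.11) and TNPO1 (0.80 ± 0.11), an importer of HNRNPA1, also rose.

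Regulators of alternative splicing held the largest changes in both directions. Of 38 tested, 22 (57.9%) fell and 6 (15.8%) rose in progenitors relative to hESC, where 37.5% of all genes fell and 30.9% rose. ESRP1, which drives epithelial exon choices, was not above background on any progenitor array and was at least 8.16-fold lower there than in hESC (adjusted p = 1.47e-07). KHDRBS3 (-2.59 ± 0.17, SE, adjusted p = 1.52e-06), RBPMS2 (-2.29 ± 0.12, SE, adjusted p = 3.59e-07) and PTBP2 (-2.23 ± 0.11, SE, adjusted p = 2.29e-07), a neural relative of the exon repressor PTBP1, fell next. MBNL1 and MBNL2, muscleblind proteins that favour splicing patterns of differentiated tissue, were the reverse. MBNL1 was at 10.15, 10.16 and 10.14 in progenitors, 6.22, 6.87 and 6.48 in embryoid bodies and 7.20, 6.78 and 7.39 in hESC and rose by 3.03 ± 0.19 (SE, adjusted p = 1.05e-06). MBNL2 (2.51 ± 0.15, SE, adjusted p = 6.45e-07) and RBM24 (2.06 ± 0.14, SE, adjusted p = 1.86e-06), a muscle splicing regulator, rose as well. Both were below background on all embryoid body arrays, and were detected on 2 of 3 hESC arrays (MBNL2) and 1 of 3 (RBM24). RBFOX2, which acts on mesenchymal exons, rose by 0.60 ± 0.13 (SE). Of 3 tested epithelial markers, CDH1 (at least 134.6-fold lower, adjusted p = 1.92e-10) and EPCAM (-5.22) fell in progenitors relative to hESC and KRT8 rose (1.38). The log2 of their summed intensity was 12.77 to 13.27 in progenitors, 14.65 to 14.66 in embryoid bodies and 14.15 to 14.65 in hESC. Their median level was 7.93 to 7.98 in progenitors, 13.32 to 13.37 in embryoid bodies and 12.66 to 13.29 in hESC. The part of these markers in the change of ESRP1 was not tested.

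**Figure D5:**
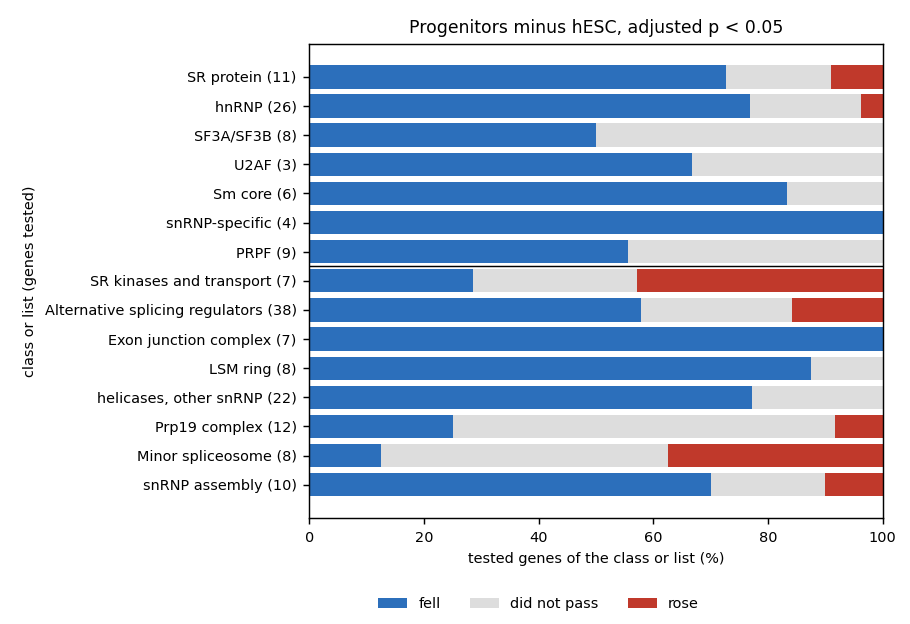
Percentage of tested genes (horizontal axis) that fell (blue), did not pass (grey) or rose (red) in progenitors minus hESC at an adjusted p under 0.05, for the 7 classes of the 67 genes (above the line) and 8 further splicing lists (below it), with the number tested in brackets. All 4 snRNP-specific and all 7 exon junction genes fell, and 3 of 7 kinase and transport genes and 3 of 8 minor spliceosome genes rose. Of all genes 37.5% fell and 30.9% rose.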

How the data were processed

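Total RNA of 9 samples was amplified, biotin labelled and hybridised to Illumina BeadChips, per the labels. The authors deposited, per the file headers, a mean bead intensity and a detection p-value for 47323 probes per array, without normalization, and a table of log2 values for 20127 probes. That log2 table was found to hold every probe detected (p under 0.05) on 4 or more arrays, and its columns shared their quantiles. BeadStudio is named in the submitters' processing notes, while its version, any background correction by the authors and the genome build were not stated in the labels or file headers. The files name no scan date or slide, so no batch could be tested. The number of arrays limits the precision.

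Starting from the deposited intensities, R 4.3.3 with limma 3.58.1 ran neqc (normexp with negative controls inferred from detection p-values, offset 16, quantile normalization, log2). Probes counted as detected (p under 0.05) by 3 or more of the 9 arrays were kept, 21683 in all. Of the 20127 probes of the deposited table, 15592 had 1 gene symbol, 4 several and 4531 none. Each gene took the probe with the highest mean in the deposited table; ranking by the neqc values would choose another probe for 12 genes. All 9 arrays were fitted with lmFit and eBayes, group as the only term, and two-sided p-values were Benjamini-Hochberg adjusted over 11991 genes per comparison. The fit was tested on simulated data. Folds against a group not above background on any array are lower bounds: the bright group's mean against, per array, the higher of the dimmest detected probe and the probe itself.

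The members and gene lists were chosen with earlier results of these data known. Named in full were up to 8 members with the largest passing change in each direction per comparison and the member of each class with the highest mean. Of other lists, up to 4 genes with the largest changes and set markers were named; further values were added after they were seen. Same-numbered arrays did not deviate together (correlations -0.12 to 0.06), so numbers were not used as pairs. Promoters are from RefSeq, GRCh38.p14. Figures used matplotlib 3.10.9 in Python 3.11.15. Alternatives changed the scaling, background correction, detection filter, probe rule, array weights and arrays used. Leaving out hESC 3 and progenitor 2 together, fitting every probe alone, and class and list counts without either array, were chosen after seeing the data.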

Additional observations from a re-analysis of the deposited data

How the results depend on the processing

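In progenitors minus hESC and in progenitors minus embryoid bodies, no member that passed turned its sign under any alternative run. Of 520 values of 29 named results under the alternatives, 483 stayed on their side of the threshold. The other 37 no longer passed, most of them in embryoid bodies minus hESC, and none reversed. These 29 were chosen as the largest passing changes, which favours staying. Over all members, averaging near-identical arrays lost 16 of 50 calls in progenitors minus hESC. It lost 33 of 47 in progenitors minus embryoid bodies and 12 of 12 in embryoid bodies minus hESC. With arrays scaled by their medians, the median of all genes shifted to -0.28 in embryoid bodies minus hESC, -0.24 in progenitors minus hESC and 0.00 in progenitors minus embryoid bodies, so changes there are relative to that shift. Bracketed percentages below are the share of all genes counted in the same way. In embryoid bodies minus hESC, 11 members fell (11%). The count was 32 with median scaling (34.9%), 27 with array weights (25.2%) and 0 with near-identical arrays averaged (0%), which leaves 2 residual degrees of freedom. It was 23 without both hESC 3 and progenitor 2 (23.6%), and 3 to 21 when 1 array was left out (5.35% to 18.1%). The 1 that rose (10.7%) became 0 with median scaling (3.72%), 3 without background correction (11.4%), 3 on the deposited values (11.8%) and 2 with the mean of all probes (10.3%). It became 7 with array weights (23.3%), 0 with arrays averaged (0%), 5 without both arrays (21.3%), and 0 to 4 with 1 array left out (5.23% to 16.5%). A 2-fold fall was found for 2 members with median scaling (4.15%) and for 0 to 1 with 1 array left out (1.38% to 2.03%). In progenitors minus hESC, the 48 falls (37.5%) were 45 to 50 with 1 array left out (34.9% to 38.7%) and 32 with arrays averaged (26.3%). The 14 of 2-fold (19.1%) were 7 on the deposited values (11.3%), 9 without both arrays (18.3%), and 9 to 18 with 1 array left out (18.2% to 19.4%). The 2-fold rise of SRSF8 was 0 with median scaling, 0 without background correction and 0 on the deposited values. In progenitors minus embryoid bodies, the 45 falls (37.8%) became 13 with arrays averaged, or 19.4% of members, near the share of all genes (20.1%). The 9 of 2-fold (18.9%) became 4 with median scaling (16.9%), 5 with array weights (18.5%), 4 without both arrays (18.5%), and 4 to 11 with 1 array left out (18.4% to 19.3%). The 2 that rose (31.2%) became 8 with median scaling (34%), 4 with array weights (36.1%), 1 with arrays averaged (16.7%), 4 without both arrays (34.7%), and 2 to 4 with 1 array left out (28.7% to 32.4%). The 2-fold rise there became 0 without background correction, 0 on the deposited values, 0 with array weights, 0 without both arrays, and 0 to 1 with 1 array left out. With the array number as a replicate block, 9 members fell in embryoid bodies minus hESC (8.09%), 47 in progenitors minus hESC (36.5%) and 41 in progenitors minus embryoid bodies (36.7%). The cause of these shifts was not tested. Weak signals limit SRSF12 and HNRNPA3P1, which were not detected on all arrays.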
